A study of Mus musculus with 16 samples.

Results

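Follicular helper-like cells were sought among the CD4+IL-4eGFP+ T cells of the mesenteric lymph node (MLN), the node that drains the gut, in mice infected with the hookworm model Nippostrongylus brasiliensis. A cell was counted as follicular helper-like when it held at least 1 UMI (a counted RNA molecule) of Cxcr5 and at least 1 UMI of Bcl6 or Il21. By this rule 343 of 3216 MLN cells were members, 262 of 2462 in mouse 1 and 81 of 754 in mouse 2, among 4714 cells kept from MLN and lung. The members were thus selected on measured values of 3 genes, which are described but not tested. All mice were 4get/C57BL/6, carried the IL-4eGFP reporter allele, received 500 larvae and were analysed at day 10. They were 13 weeks old in the first run, which covered lung and MLN of 2 mice, and 10 weeks old in a second run on mediastinal lymph node (medLN) and MLN of 2 other mice. Each kept cell of the first run had over 500 UMIs, over 500 genes, under 7% mitochondrial UMIs and a productive TCRα and TCRβ chain. No uninfected mouse and no IL-4eGFP- cell entered the comparisons, and the reporter reports that a cell was licensed for IL-4 rather than that it secreted the cytokine.

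Tfh cells help B cells in the follicles of lymphoid organs. CXCR5 draws them toward the chemokine CXCL13 in the follicle, BCL6 is the transcriptional repressor that sets the lineage, and IL-21 is the cytokine with which they drive germinal center B cells and plasma cells. In type 2 immunity Tfh cells also make IL-4, which acts on B cells during class switching, and BLIMP-1 (Prdm1), the IL-2 receptor pathway and KLF2 oppose their differentiation. The 4get reporter therefore lights up Tfh cells along with Th2 cells in a lymph node.

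Each TCR chain carries a CDR3, the loop joined anew in every T cell that contacts the peptide. The chains below belong to the largest clone with members, to the clone with the most members beside other cells of 1 class only, and to the 3 clones whose cells were all members. Those of clones 1 and 2 are shown because members shared them with cells of other classes, and those of clones 6, 7 and 8 because only members held them. Capitals mark the bases between the conserved first codon (cysteine) and last codon (phenylalanine), which are in lower case.
clone 1 TRA, TRAV21-DV12 with TRAJ48: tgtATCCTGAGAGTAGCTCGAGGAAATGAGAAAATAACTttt
clone 1 second TRA, TRAV6-7-DV9 with TRAJ34: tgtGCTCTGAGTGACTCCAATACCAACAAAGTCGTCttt
clone 1 TRB, TRBV13-1 with TRBJ2-5: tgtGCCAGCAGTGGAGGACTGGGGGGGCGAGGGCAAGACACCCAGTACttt
clone 2 TRA, TRAV8N-2 with TRAJ21: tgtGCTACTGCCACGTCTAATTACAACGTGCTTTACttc
clone 2 TRB, TRBV13-3 with TRBJ2-7: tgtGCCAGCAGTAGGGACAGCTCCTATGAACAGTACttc
clone 6 TRA, TRAV14N-3 with TRAJ22: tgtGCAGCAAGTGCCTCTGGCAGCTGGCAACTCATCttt
clone 6 TRB, TRBV15 with TRBJ1-1: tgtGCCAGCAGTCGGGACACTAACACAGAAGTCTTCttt
clone 7 TRA, TRAV14N-3 with TRAJ23: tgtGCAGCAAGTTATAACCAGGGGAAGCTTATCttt
clone 7 TRB, TRBV13-2 with TRBJ2-4: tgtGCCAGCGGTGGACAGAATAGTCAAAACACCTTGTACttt
clone 8 TRA, TRAV5-4 with TRAJ40: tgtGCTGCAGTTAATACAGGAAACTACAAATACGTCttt
clone 8 TRB, TRBV3 with TRBJ2-7: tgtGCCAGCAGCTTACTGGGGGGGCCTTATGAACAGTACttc

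Members made up a like share of the MLN in both mice and were nearly absent from the lung. The share was 10.6% in mouse 1 (exact 95% Clopper-Pearson interval 9.45 to 11.9) and 10.7% in mouse 2 (8.62 to 13.2), intervals that cover counting error only. In the lung 2 of 1082 cells of mouse 1 met the rule (0.185%, 0.0224 to 0.666), and 0 of 416 cells of mouse 2 did. A count of 0 allows a share of up to 0.721% when 3 counts are set, and the exact upper limit is 0.883%. Lung cells with none of the 3 genes had a median of 6885 and 5748 UMIs and the members 6009 and 6199 UMIs. A rule that asks for UMIs of 2 genes is met more readily by deep cells, and its part in the depth of the members was not tested. The MLN cells with none of the 3 genes were shallower than these lung cells and the members, at a median of 4812 and 4816 UMIs. When each cell was thinned to 2000 UMIs, 65 of 2411 MLN cells of mouse 1 (2.70%) and 23 of 743 of mouse 2 (3.10%) still met the rule, against 0 of 1068 and 0 of 408 lung cells, with exact upper limits of 0.345% and 0.900%. The share of members thus moved with the depth per cell, while the order of the organs did not.

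**Figure D1:**
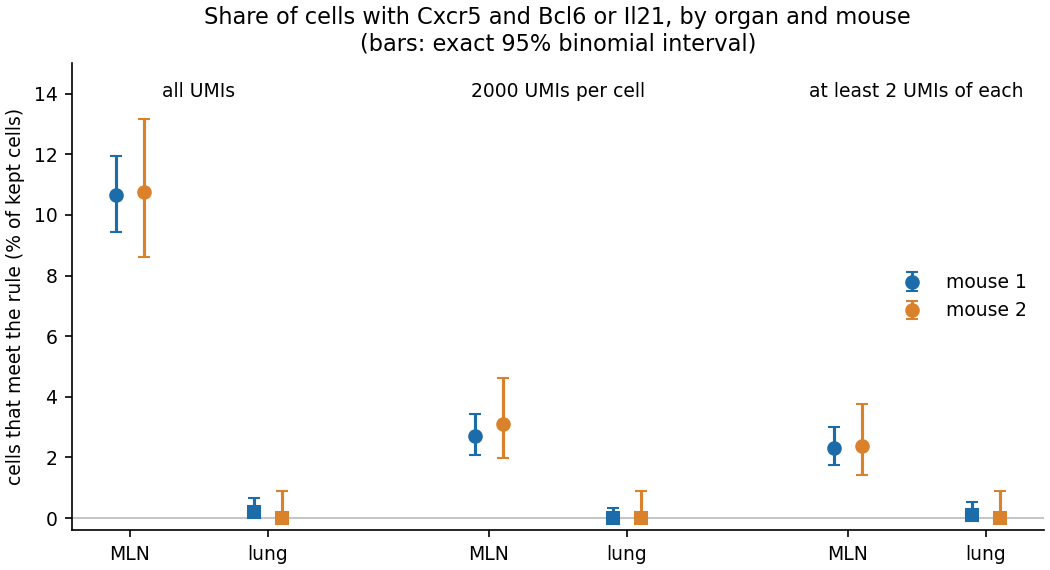
Share of kept cells that met the rule (y axis, % of kept cells) in MLN and lung of each mouse, with exact 95% binomial intervals as bars, for all UMIs, for cells thinned to 2000 UMIs and for a rule of at least 2 UMIs of each. The MLN samples sit at 10.6% and 10.7%, at 2.70% and 3.10%, and at 2.32% and 2.39%, while the lung samples lie at or close to 0.

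Of the 343 members, 254 held Bcl6 without Il21, 54 Il21 without Bcl6 and 35 held both. The median member had 2 Cxcr5 UMIs and the highest 11. Just inside the threshold lay 104 members with 1 Cxcr5 UMI and 1 UMI of Bcl6 or Il21, and 75 members (57 and 18) had at least 2 of each. Just outside it lay 925 MLN cells with Cxcr5 and neither other gene (734 and 191), and 233 with Bcl6 or Il21 and no Cxcr5 (179 and 54). The remaining 1715 MLN cells (1287 and 428) held none of the 3 genes and form the class "none". Summed over the members of a mouse, Cxcr5 stood at 372 and 309 CPM (counts of a gene scaled to a fixed total of UMIs), Bcl6 at 153 and 153 CPM and Il21 at 64.8 and 58.7 CPM. The cells with Cxcr5 only, at 325 and 328 CPM of Cxcr5, had by definition to hold a Cxcr5 UMI as well.

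All counts of a class were summed per mouse and the 4 sums were compared with edgeR's quasi-likelihood test, with p-values adjusted over all genes by Benjamini-Hochberg. In such sums fewer expressing cells and less RNA per cell cannot be told apart. Cells of a mouse are not replicates, so n = 2 mice per class throughout. An exact two-sided permutation test on 2 against 2 values cannot fall below 0.333. Sums that do not overlap reach only that limit. A lack of overlap below therefore describes the genes named, and the share of all genes without overlap is not given. Of 9174 genes tested, 347 passed an adjusted p of 0.05 between members and the class none (3.78%), 144 of them higher in the members (1.57%) and 203 lower (2.21%). Since both classes came from the same animals, the mouse was also entered as a block, and the count was then 643. The median log2 fold change over all genes was 0.00. When cells were thinned to 2000 UMIs before the rule was applied, 65 and 23 members were left and 115 genes were called. Of the 58 called genes in the lists or with the largest changes, 24 kept their call then, among them Sostdc1, Pdcd1, Tox2, Padi4, Il7r, Id2 and Klf2. Another 28 lost it with the same direction, among them Il4, Gata3, Tcf7, Ccr7, Ccr9 and S1pr1. Nfatc1 changed direction, and the rest had no value after thinning. Without the cells whose barcode also named a cell of another library the count was 317. Such barcodes numbered 8 between MLN and lung of mouse 1, 4 between MLN of mouse 2 and lung of mouse 1, and 1 between the MLN libraries, and 3 of them were members.

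Both marker genes of follicular helper cells that the rule did not use were higher in members. Sostdc1, which encodes a secreted antagonist of BMP and Wnt signals found in Tfh cells (chr12:36314139-36318452, plus strand, GRCm38), stood at 136 and 237 CPM in the members of mice 1 and 2 and at 35.6 and 23.8 CPM in the class none. The groups did not overlap and the log2 fold change was 2.42 ± 0.25 (SE, adjusted p = 0.00035). A Sostdc1 UMI was seen in 12.2% and 13.6% of members, 3.26% and 1.64% of cells of the class none and 0.0924% and 0% of lung cells. When the same cells, classed on all their UMIs, were thinned to 2000 UMIs, these shares were 9.62% and 12.3% in members and 2.88% and 1.19% in the class none. Ascl2, a transcription factor that acts upstream of CXCR5 (chr7:142966829-142969264, minus strand), stood at 28.0 and 36.9 CPM in members and at 1.90 and 1.67 CPM in the class none. Its log2 fold change was 3.99 ± 0.34 (adjusted p = 0.000131), with 27 and 7 Ascl2-positive members and 11 and 4 such cells in the class none. Both genes were thus higher in members of both mice, although most members held no UMI of either.

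Most transcription factors of the Tfh program were higher in members. Of 12 listed factors tested, 8 were higher in members (Ascl2, Pou2af1, Tox2, Tox, Maf, Nfatc1, Tcf7 and Id3) and none was lower, with a list median log2 fold change of 0.61. Pou2af1, the coactivator OCA-B, stood at 45.0 and 43.6 CPM against 8.40 and 6.25 CPM, a log2 fold change of 2.46 ± 0.24 (adjusted p = 0.000248). Tox2 stood at 244 and 265 CPM against 93.2 and 83.8 CPM (log2 fold change 1.44 ± 0.12, adjusted p = 9.85e-05), and its paralog Tox at 272 and 317 CPM against 129 and 127 CPM. Both belong to the HMG-box factors. Tcf7, which encodes TCF-1 and favours Bcl6 expression, differed less, with 676 and 735 CPM against 472 and 482 CPM (log2 fold change 0.50 ± 0.10, adjusted p = 0.0154). Nfatc1 rose by 0.72 ± 0.12 on the log2 scale (adjusted p = 0.0053), but its log2 fold change was -0.012 when cells were thinned before the rule was applied. Batf, Irf4, Lef1 and Stat3 did not pass the test.

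Among 20 listed genes of the Tfh surface and of B cell help, 6 were higher in members and none was lower (list median 0.29). Pdcd1, which encodes the inhibitory receptor PD-1 that is abundant on Tfh cells (chr1:94038305-94052553, minus strand), stood at 416 and 363 CPM in members against 101 and 92.1 CPM in the class none. Its groups lay far apart, at a mean of 389 ± 37.8 CPM against 96.7 ± 6.40 CPM (SD, n = 2 mice), and the log2 fold change was 1.95 ± 0.12 (adjusted p = 3.75e-05). A Pdcd1 UMI was seen in 76.7% and 74.1% of members and in 31.9% and 30.6% of the class none, and after the same thinning in 48.5% and 49.4% against 17.8% and 17.6%. Pdcd1 was not particular to lymph node cells, with 282 and 113 CPM over all lung cells. Tigit, another inhibitory receptor gene, stood at 509 and 401 CPM against 161 and 114 CPM (log2 fold change 1.66 ± 0.16, adjusted p = 0.000322). Sh2d1a, which encodes the adaptor SAP that stabilises contact of T and B cells, stood at 599 and 713 CPM against 338 and 358 CPM (log2 fold change 0.85 ± 0.11, adjusted p = 0.00131). Tnfsf8 (CD30 ligand) and Btla also rose, by 1.23 and 1.03 on the log2 scale. Icos and Cd40lg, the costimulator and the ligand through which Tfh cells act on B cells, gave log2 fold changes of -0.26 ± 0.11 and -0.14 ± 0.15 and did not pass the test.

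Further genes were named by the size of their change at a mean of at least 50 CPM. Among these the largest rise was that of Padi4, a peptidylarginine deiminase that converts arginine to citrulline in proteins such as histones (chr4:140745865-140774236, minus strand). Padi4 stood at 112 and 80.6 CPM in members against 6.91 and 12.9 CPM in the class none, a log2 fold change of 3.45 ± 0.27 (adjusted p = 8.05e-05). Stx11, a syntaxin of vesicle fusion, rose by 1.82 ± 0.17, and Hif1a, the oxygen-sensing transcription factor, by 1.40 ± 0.11 on the log2 scale. Hif1a stood at 324 and 309 CPM against 113 and 119 CPM. Ikzf2, which encodes Helios and is also among the regulatory T cell genes, stood at 124 and 124 CPM against 41.6 and 43.8 CPM (log2 fold change 1.49 ± 0.14, adjusted p = 0.000197). Ptpn11, the phosphatase SHP-2, rose by 1.29, Odc1, the first enzyme of polyamine synthesis, by 1.30, and the tubulin gene Tubb2a by 1.39. H2-Q2 rose by 1.32, but belongs to a family of near-identical class I genes among which reads may be split. Genes named in this way were also lower in members. Lgals7, Vim and Myo6 gave log2 fold changes of -2.25, -1.93 and -1.72, and Emp3, Adgre5 and Tpst2 gave -1.50, -1.35 and -1.31.

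**Figure D2:**
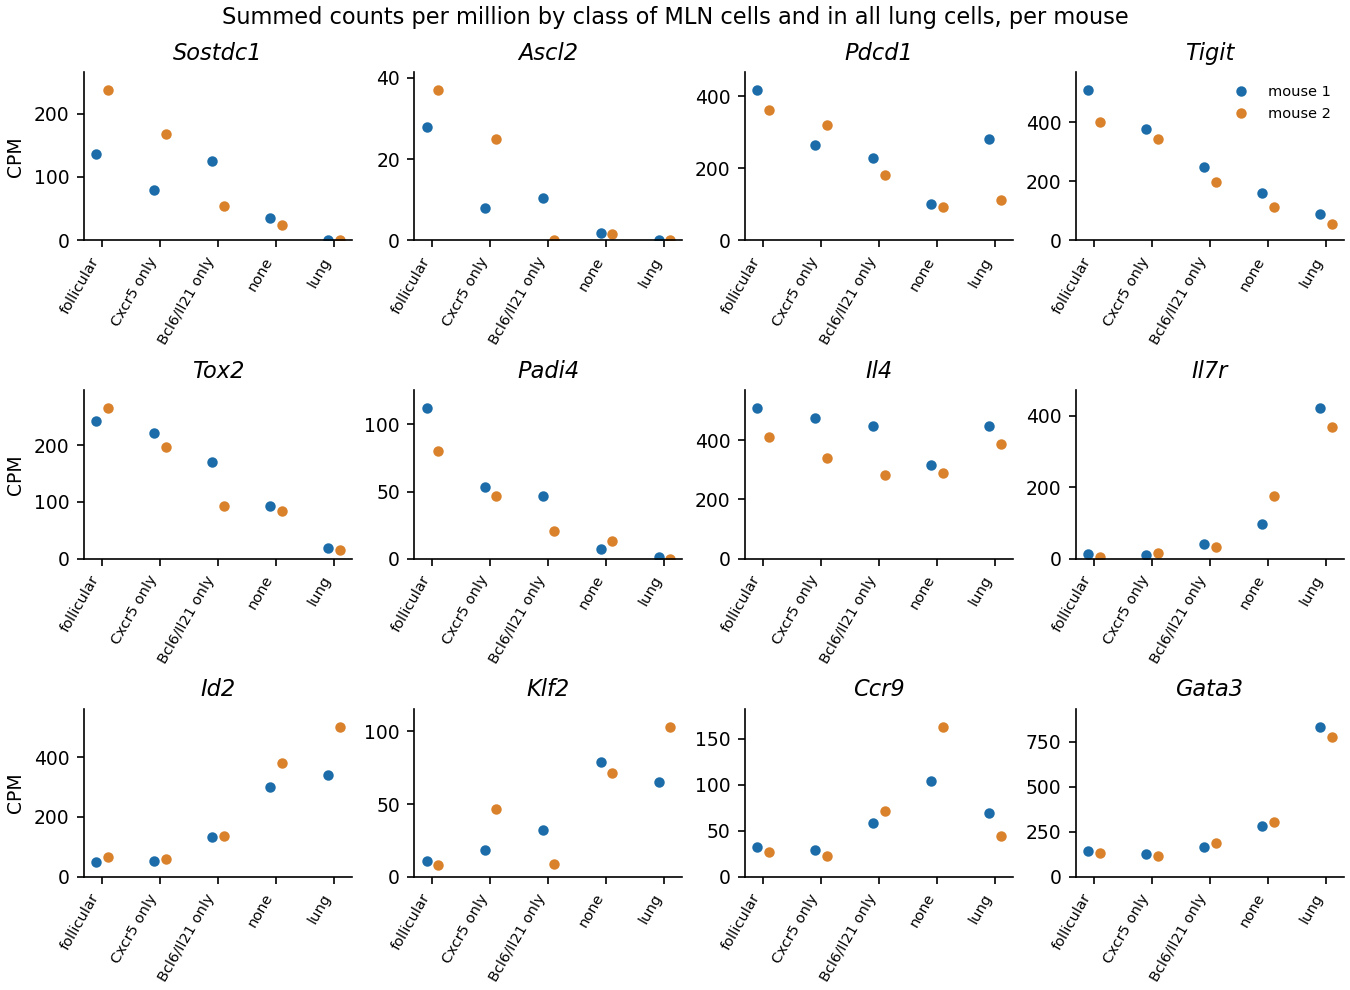
Level (y axis, CPM of the summed counts, linear from 0) of 12 genes in members, in MLN cells with Cxcr5 only, with Bcl6 or Il21 only or with none of the 3 genes, and in all lung cells, with 1 point per mouse. Padi4, Ascl2 and Pdcd1 are highest in members, and Il7r and Id2 are far lower in members and in cells with Cxcr5 only than in the class none.

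Of 10 listed genes that oppose the follicular fate, 4 fell in members (Il7r, Id2, Klf2 and Il2ra), none rose and the list median was -1.42, while Foxo1, Runx3, Prdm1, Stat5b, Stat5a and Il2rb did not pass the test. Il7r, which encodes the IL-7 receptor alpha chain of long-lived T cells (chr15:9505788-9530176, minus strand), stood at 11.5 and 5.04 CPM in members against 97.7 and 175 CPM in the class none. Its log2 fold change was -3.80 ± 0.40 (adjusted p = 0.000364), and lung cells reached 420 and 367 CPM. Id2, which blocks E proteins that drive Cxcr5, stood at 50.5 and 65.5 CPM against 300 and 381 CPM (log2 fold change -2.68 ± 0.17, adjusted p = 3.75e-05). Klf2, the factor that maintains S1pr1, stood at 11.0 and 8.39 CPM against 79.1 and 71.3 CPM (log2 fold change -2.93 ± 0.22, adjusted p = 8.05e-05). Every member sum of these 3 genes lay below every sum of the class none. Il2ra, the IL-2 receptor alpha chain, stood at 3.84 and 6.71 CPM against 23.4 and 13.3 CPM (log2 fold change -2.14 ± 0.45, adjusted p = 0.0247).

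Most receptors that place T cells and let them leave a node were lower in members. Of 13 such genes tested, 10 were lower in members, none was higher and the median was -1.32. Ccr7, the receptor for the T zone, stood at 13.2 and 6.71 CPM against 60.8 and 57.5 CPM (log2 fold change -2.43 ± 0.24, adjusted p = 0.000336). S1pr1, the exit receptor, stood at 18.7 and 23.5 CPM against 60.5 and 59.2 CPM, and fell by 1.64 on the log2 scale. Selplg (PSGL-1) fell by 1.32. Ccr9 and integrin genes were also among the 10 lower genes. Ccr9, which responds to the small-intestinal chemokine CCL25, stood at 32.4 and 26.9 CPM against 104 and 163 CPM (log2 fold change -2.14 ± 0.26, adjusted p = 0.000853). The integrin genes Itga4, Itgb1 and Itgb7 fell by 1.32, 1.17 and 1.06. Gpr183, whose product guides cells to the follicle border, did not pass the test, at 370 and 347 CPM against 296 and 331 CPM.

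Th2 genes moved in both directions, with 1 of 11 higher, 6 lower and a median of -1.31. Il4 itself, the gene of the reporter, was higher in members, at 508 and 410 CPM against 317 and 290 CPM (log2 fold change 0.55 ± 0.12, adjusted p = 0.0305). An Il4 UMI was seen in 83.2% and 71.6% of members and in 65.8% and 63.3% of the class none, and after the same thinning in 59.2% and 39.5% against 38.6% and 33.8%. Gata3, the master factor of Th2 cells, was lower, at 145 and 133 CPM against 280 and 301 CPM (log2 fold change -1.11 ± 0.12, adjusted p = 0.000364). Lung cells reached 834 and 777 CPM of Gata3. Il1rl1, the IL-33 receptor, stood at 1.10 and 1.68 CPM against 19.9 and 27.5 CPM, and Cysltr1, a leukotriene receptor, at 3.29 and 0 CPM against 48.9 and 47.5 CPM. Both fell, as did Adam8, Il4ra and Plac8, and Plac8 stood at 24.1 and 16.8 CPM against 277 and 193 CPM. The effector cytokine gene Il13 stood at 2.74 and 0 CPM against 16.4 and 93.8 CPM, and missed the threshold (log2 fold change -4.59 ± 1.26, adjusted p = 0.0822) unless the mouse was a block (adjusted p = 0.00079).

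Of 12 early response genes of T cell activation, Egr2 and Egr1 rose by 1.24 and 0.60 and Myc and Cd69 fell by 1.21 and 0.71 on the log2 scale. Of 15 cell cycle genes, Top2a and Stmn1 fell by 1.00 and 0.91 and the others did not pass the test (median -0.56). Cells with a UMI of Mki67, Top2a or Cdk1 made up 16.4% and 18.5% of members against 13.5% and 16.4% of the class none, and without such cells 265 genes were called. None of 12 interferon-stimulated genes passed the test (median -0.43). Of 4 regulatory T cell genes tested, Ikzf2 rose and Nrp1 fell, by 1.18, and Foxp3 was not tested.

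Markers of other cells were examined beside these results. None of the 8 T cell genes passed the test. Of 19 B cell genes 6 were tested and none passed the test. Their summed level was 312 and 387 CPM in members and 274 and 375 CPM in the class none, led by Ighm at 254 and 257 CPM in members, and 5 of the 6 defining B cell genes were at 0 in each member sum. Cd79a, Ms4a1 and Ebf1 were at 0 in all 4 sums. Of 14 myeloid genes 7 were tested and none passed, with 119 and 224 CPM in members, 159 and 175 CPM in the class none and Cst3 as the most abundant gene, and of the 5 defining genes Csf1r was at 0 in the members of mouse 1. More than 1 productive TRB or more than 2 TRA contigs were found in 9.92% and 14.8% of members and in 6.45% and 6.54% of the class none. Without these cells 439 genes were called, and without cells holding a UMI of a defining B cell gene 327. Of the innate-like genes Nkg7 and Zbtb16 fell in members by 3.72 and 3.32 on the log2 scale (2 of 5 tested), and the list summed to 45.8 and 23.4 CPM against 117 and 110 CPM. The invariant TRAV11-TRAJ18 chain of natural killer T cells was carried by 45 of 1287 (3.50%) and 20 of 428 (4.67%) cells of the class none and by 0 of 262 and 0 of 81 members, with exact upper limits of 1.40% and 4.45%. It was also carried by 0 of 734 and 0 of 191 cells with Cxcr5 only (exact upper limits 0.501% and 1.91%). The part of these cells in the lower genes was not tested.

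**Figure D3:**
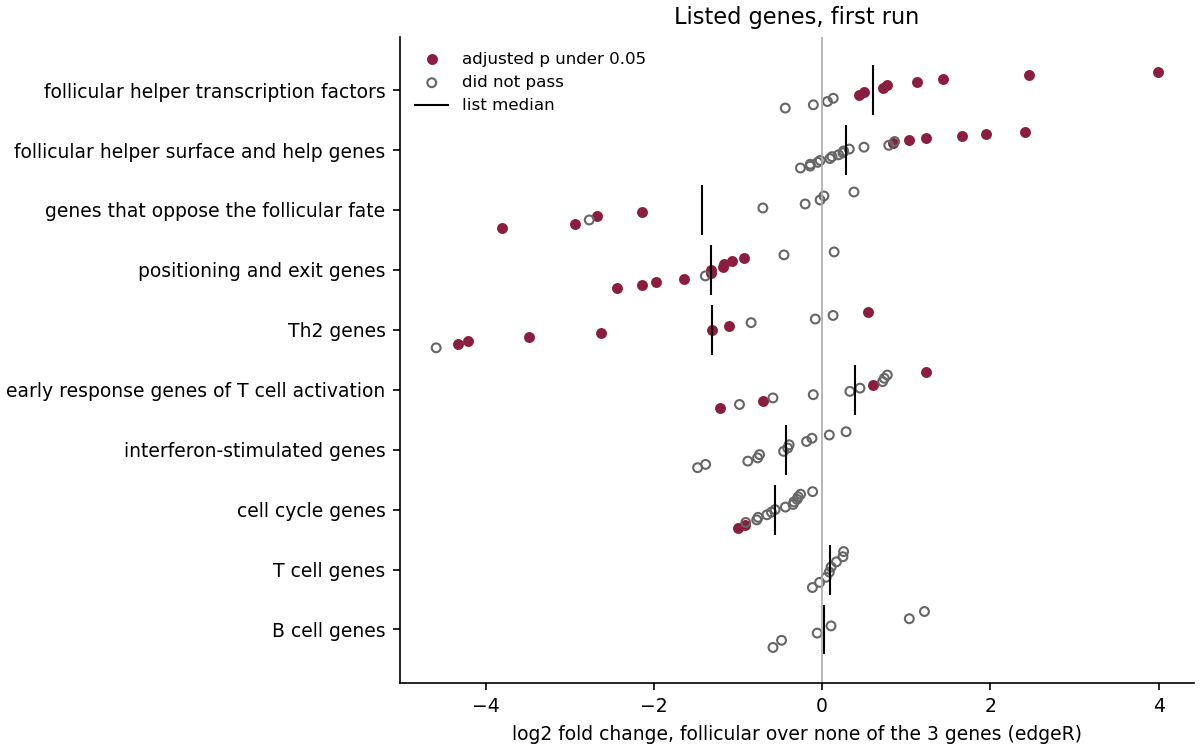
Log2 fold change (x axis, members over the class none, edgeR, first run) of every tested gene of 10 lists (rows), with 1 point per gene, called genes filled and list medians as bars. Transcription factors and help genes lie mostly to the right of 0, and positioning, opposing and Th2 genes mostly to the left.

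Against the cells with Cxcr5 only, the nearest neighbours by the rule, the members differed in far fewer genes. Of 8460 genes 16 passed the test (0.189%), 13 higher in members (0.154%) and 3 lower (0.0355%), and 434 had an unadjusted p under 0.05. The median log2 fold change over all genes was 0.00. With the mouse as a block 148 passed, DESeq2 called 4, and without the members of mouse 2 none passed. Hif1a stood at 324 and 309 CPM against 162 and 176 CPM in the cells with Cxcr5 only (log2 fold change 0.90 ± 0.11, adjusted p = 0.00346). Stx11 stood at 101 and 133 CPM against 48.4 and 50.8 CPM (1.16 ± 0.16, adjusted p = 0.00513). Tnfrsf4, which encodes the costimulatory receptor OX40, stood at 152 and 186 CPM against 86.5 and 82.9 CPM (0.92 ± 0.14, adjusted p = 0.00679), although it had not passed the test against the class none. All 3 genes were higher in both mice without overlap. Padi4 rose by 0.96 ± 0.17, Pou2af1 by 1.15 ± 0.22, Ikzf2 by 0.72 ± 0.13, the glycolytic enzyme Tpi1 by 0.71 ± 0.14 and the transcription factor Cebpa by 1.35 ± 0.21 on the log2 scale. Among the 3 lower genes was Ripor2, at 45.0 and 42.0 CPM against 76.2 and 89.2 CPM (log2 fold change -0.90 ± 0.17, adjusted p = 0.0412). With cells with Cxcr5 only that were matched in UMIs, Hif1a, Stx11, Tnfrsf4, Padi4 and Ikzf2 kept their call. Ripor2, Tpi1, Pou2af1 and Plac8 did not, at adjusted p of 0.283, 0.0793, 0.154 and 0.0617. The matched log2 fold changes of Ripor2 and Tpi1 were -0.715 and 0.571. With matching and the mouse as a block all 9 of these genes kept their call.

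Several genes that had fallen against the class none were not called against the cells with Cxcr5 only. Il7r was at 11.5 and 5.04 CPM in members and 11.2 and 16.1 CPM in the cells with Cxcr5 only. Id2 was at 50.5 and 65.5 CPM against 53.8 and 59.7 CPM, and Gata3 at 145 and 133 CPM against 129 and 118 CPM. None of 8 opposing genes and none of 12 positioning genes passed this test, with list medians of -0.10 and -0.28 and lowest values of -1.44 and -0.97. Il2ra was not tested here. Plac8 was the exception among Th2 genes, at 24.1 and 16.8 CPM against 3.98 and 5.35 CPM (log2 fold change 2.30 ± 0.38, adjusted p = 0.0182). Its UMIs came from 6 of 262 and 3 of 81 members, and 1 cell of mouse 1 held 26 of 44 and 1 cell of mouse 2 held 6 of 10. Among the 12 transcription factors Pou2af1 passed and among the 20 help genes Tnfrsf4 did, with medians of 0.22 and 0.08. Sostdc1, at 136 and 237 CPM against 80.0 and 168 CPM, overlapped between the classes, and Ascl2, at 28.0 and 36.9 CPM against 7.95 and 25.0 CPM, did not pass the test (adjusted p = 0.545). With the mouse as a block both passed (adjusted p = 5.5e-05 and 0.0041), as did Pdcd1, at 416 and 363 CPM against 264 and 321 CPM (adjusted p = 0.00038, and 0.401 without the block).

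Within the members, the 89 cells with an Il21 UMI (69 and 20) were compared with the 254 that held Bcl6 without Il21 (193 and 61). Their depth was alike in mouse 1, at a median of 6095 and 6002 UMIs, and was higher for the Il21 cells in mouse 2, at 8075 against 5690 UMIs. Of 5604 genes 60 passed the test (1.07%), 43 higher in the Il21 cells (0.767%) and 17 lower (0.303%), while 115 passed with the mouse as a block and 15 with DESeq2. Of the 36 called genes in the lists or with the largest changes, 9 kept their call with DESeq2 (Stx11, Hif1a, Padi4, Lag3, Gadd45b, Gpm6b, Sccpdh, Rflnb and Lztfl1) and 26 lost it, and Ccr9 had no adjusted p there. The median log2 fold change over all genes was 0.00. Stx11 stood at 226 and 270 CPM in Il21 cells against 57.1 and 70.7 CPM (log2 fold change 1.94 ± 0.21, adjusted p = 2.64e-05). Hif1a stood at 611 and 566 CPM against 224 and 193 CPM (1.44 ± 0.16, adjusted p = 3.19e-05), and Padi4 at 273 and 151 CPM against 55.6 and 48.7 CPM (2.05 ± 0.24, adjusted p = 3.42e-05). None of these 3 genes overlapped between the groups, and each was higher in the Il21 cells of both mice.

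Several receptor genes were called as well. Lag3, an inhibitory receptor gene, stood at 233 and 178 CPM against 72.6 and 65.8 CPM (log2 fold change 1.55 ± 0.21, adjusted p = 0.000182). Tnfrsf4 stood at 362 and 237 CPM against 78.6 and 163 CPM (1.50 ± 0.26), Ctla4 at 222 and 140 CPM against 83.8 and 43.9 CPM (1.39 ± 0.25), and Pdcd1 at 607 and 501 CPM against 349 and 300 CPM (0.73 ± 0.16, adjusted p = 0.0243). Of the 20 help genes 4 were higher (Ctla4, Pdcd1, Tnfsf8 and Tnfrsf4), Cd28 was lower and the other 15 did not pass the test, Icos, Tigit, Btla and Cd40lg among them. Of the 12 transcription factors Ascl2, Nfatc1, Tox and Maf were higher and Id3 was lower. Ascl2 stood at 57.1 and 102 CPM against 17.8 and 7.31 CPM (2.20 ± 0.41, adjusted p = 0.00626). Il4 did not pass the test, at 499 and 496 CPM against 511 and 370 CPM. Il2rb was higher among 6 opposing genes tested and Plac8 among 6 Th2 genes, but the Plac8 UMIs came from 1 Il21 cell per mouse. Cd69 was higher among 8 early response genes and Ikzf2 among 2 regulatory T cell genes.

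Gadd45b, a stress-induced gene, and Cebpa were higher as well, by 2.05 and 1.75 on the log2 scale. Gal, which encodes the neuropeptide galanin, had 17 and 36 UMIs in the Il21 cells and 0 and 0 in the others, but these UMIs came from 2 cells of mouse 1 and 1 cell of mouse 2. Rflnb, which encodes a filamin-binding protein, stood at 169 and 119 CPM against 451 and 461 CPM (log2 fold change -1.63 ± 0.19, adjusted p = 3.34e-05). Its groups lay far apart. Satb1, a chromatin organiser, stood at 36.0 and 32.4 CPM against 81.5 and 124 CPM, and Gpr183 at 222 and 259 CPM against 422 and 387 CPM. Both fell, by 1.50 and 0.83. Of 9 positioning genes tested 3 were lower and none was higher, and none of 13 cell cycle genes passed the test. In mouse 1, 10 of 69 Il21 cells and 33 of 193 Bcl6 cells held a UMI of Mki67, Top2a or Cdk1. In mouse 2, 7 of 20 and 8 of 61 did.

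The second run allowed the same comparison in 2 other mice. Its cells were assigned to organ and mouse by hashtag antibodies, and the TCR was no criterion. The rule took 213 of 1986 MLN cells of mouse 1 (10.7%, 9.40 to 12.2) and 209 of 1998 of mouse 2 (10.5%, 9.15 to 11.9), at a median of 3949 and 4552 UMIs against 3213 and 3547 UMIs in the class none. Of 10121 genes 887 passed the test (8.76%), 389 higher in members (3.84%) and 498 lower (4.92%), and 1584 passed with the mouse as a block. The median log2 fold change over all genes was 0.00. Sostdc1 stood at 202 and 144 CPM in members against 20.4 and 16.5 CPM in the class none (log2 fold change 3.20 ± 0.17, adjusted p = 1.44e-05). Ascl2 stood at 34.1 and 29.7 CPM against 1.57 and 0.435 CPM (4.98 ± 0.42, adjusted p = 0.000138), and Padi4 at 80.8 and 90.9 CPM against 6.80 and 6.52 CPM (3.66 ± 0.17, adjusted p = 1.21e-05). Pdcd1 stood at 246 and 255 CPM against 51.9 and 44.5 CPM (2.35 ± 0.11), Id2 at 28.2 and 49.0 CPM against 224 and 206 CPM (-2.47 ± 0.19), and Il4 at 283 and 275 CPM against 132 and 151 CPM (0.95 ± 0.10, adjusted p = 0.000616). None of these 6 genes overlapped between the classes, and all moved in the direction of the first run.

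Of the 347 genes called in the first run, 332 were tested in both and 326 of these had the same sign. Called in both in the same direction were 262, which is 75.5% of the first run's calls and 29.5% of the second run's, and no gene was called in opposite directions. Higher in both were 111 genes and lower in both 151. A test of the difference of the effect between the runs called 0 of 9555 genes in edgeR's quasi-likelihood interaction test, with 494 at an unadjusted p under 0.05.

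**Figure D4:**
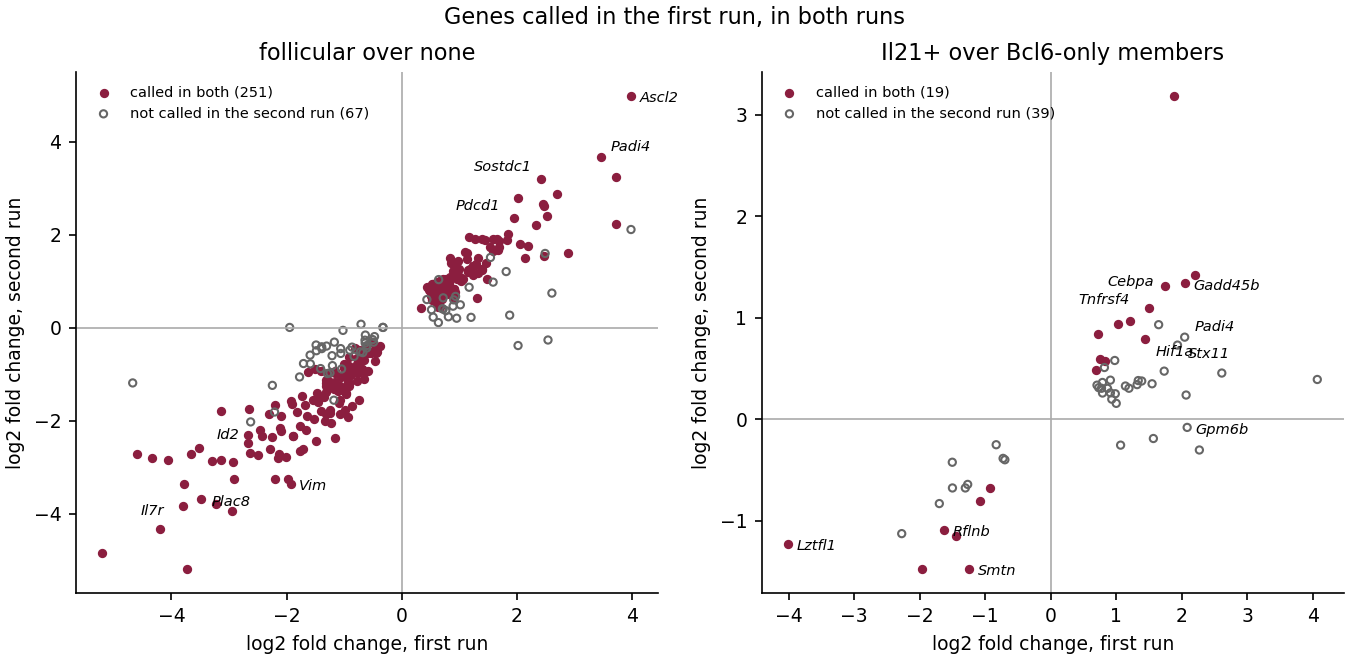
Log2 fold change in the first run (x axis) against the second run (y axis) of the genes called in the first run, for members over the class none (318 genes, leaving out 14 with a class at 0) and for Il21 over Bcl6 members (58 genes), with 1 point per gene and genes called in both runs marked. Nearly all points of the first panel lie at the lower left or upper right, and in the second panel 54 of 58 have the same sign.

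In the second run Cxcr4, S1pr2 and Il13 also passed the test. Of 20 help genes 13 were higher, among them Cxcr4 at 42.8 and 40.2 CPM against 14.3 and 18.7 CPM and S1pr2 at 30.2 and 20.9 CPM against 9.58 and 8.12 CPM, the receptors that hold cells in the germinal center. Their log2 fold changes were 1.29 ± 0.20 and 1.49 ± 0.26, against 0.86 and 0.79 in the first run, where they did not pass. Of 12 transcription factors 7 were higher and Irf4 was lower, of 10 opposing genes 6 were lower with Prdm1 and Runx3 now among them, and of 13 positioning genes 10 were lower. Il2ra stood at 1.95 and 22.5 CPM against 87.1 and 93.2 CPM there (log2 fold change -2.80 ± 0.38, adjusted p = 0.00197). Gpr183, at 359 and 324 CPM against 251 and 219 CPM, was the positioning gene that was higher. Of 14 Th2 genes 8 were lower, with Il13 now called at 0.973 and 6.43 CPM against 44.4 and 182 CPM (log2 fold change -4.87 ± 1.15, adjusted p = 0.0284). Il1rl1 had 0 and 0 UMIs in members against 129 and 247 in the class none. Of 12 early response genes 6 were higher and none was lower, and of 15 cell cycle genes 11 were lower. Of 11 interferon-stimulated genes 3 were lower (Usp18, Bst2 and Ifit1, list median -0.30), against none of 12 in the first run.

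Other markers also moved in the second run. The antibody genes Igha, Jchain and Igkc were lower in members, with 0 and 1, 0 and 3, and 3 and 3 UMIs against 1126 and 397, 2470 and 1091, and 969 and 482 in the class none. Cd22 was higher and Cd74 lower, so that 3 of 14 B cell genes tested passed. Gzmb and Gzma, granule enzymes of cytotoxic cells, were lower, as was Nkg7. Foxp3 and Il10 fell too, with 0 and 2 UMIs of Foxp3 in members against 90 and 86. Cst3 was the only 1 of 9 myeloid genes that passed, being lower, and of 8 T cell genes Cd28, Lck and Cd4 were higher. The part of such cells in the class none of this run was not tested.

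The split of members by Il21 was also made in the second run. There 65 and 87 members held Il21, and on average they held more UMIs per cell than the Bcl6 members of the same mouse. The test was passed by 293 of 6973 genes (4.20%), 200 higher in Il21 cells (2.87%) and 93 lower (1.33%). The median log2 fold change over all genes was -0.01, and 426 genes passed with the mouse as a block and 33 with DESeq2. Of the 52 called genes in the lists or with the largest changes, 12 kept their call with DESeq2 and 38 lost it. Of the 60 genes called in the first run 58 were tested in both, 54 had the same sign and 19 were called in both in the same direction, 31.7% of the first run's calls and 6.48% of the second run's. Tnfrsf4 was among them, at 390 and 339 CPM against 194 and 135 CPM (log2 fold change 1.10 ± 0.16, adjusted p = 5.96e-05). Hif1a stood at 504 and 462 CPM against 248 and 296 CPM (0.79 ± 0.14, adjusted p = 0.000586) and Cebpa at 136 and 134 CPM against 54.0 and 51.6 CPM (1.31 ± 0.22, adjusted p = 0.000418). Rflnb was again lower, at 183 and 138 CPM against 327 and 325 CPM (-1.09 ± 0.16, adjusted p = 5.96e-05). Gadd45b and Ascl2 rose by 1.34 and 1.42 and the glycolytic genes Tpi1 and Pgk1 by 0.94 and 0.59, against 1.02 and 0.75 in the first run.

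Other genes of this split were not called again. Padi4, at 169 and 82.4 CPM against 33.0 and 99.9 CPM, overlapped in the second run, Stx11 missed the threshold (log2 fold change 0.73 ± 0.22, adjusted p = 0.054), and Lag3, Ctla4, Cd83 and Gpm6b gave 0.35, 0.38, -0.19 and -0.08. Gal had 9 and 0 UMIs, from 1 cell. Conversely 13 of 15 cell cycle genes were higher in Il21 cells of the second run (median 1.41), against 0 of 13 in the first. Top2a stood at 119 and 272 CPM against 91.5 and 61.6 CPM, so that mouse 2 carried most of the difference. Of 11 early response genes 6 were higher, and of 5 B cell genes 4 were lower. Of 8 interferon-stimulated genes 3 were lower (Isg15, Irf7 and Rtp4, list median -1.08), and Gzma was lower too. The cell cycle genes moved with the split in this run, and their part in the other genes was not tested.

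Expanded clones were found among members of both mice. A clone was defined by identical V and J segments and nucleotide CDR3 of all productive chains within a mouse, over MLN and lung. Cells in clones of more than 1 cell made up 28.2% of members of mouse 1 (22.9 to 34.1) and 13.6% in mouse 2 (6.98 to 23.0). The shares were 29.3% and 13.1% of cells with Cxcr5 only, 30.1% and 12.6% of the class none, and 37.7% and 21.2% of lung cells. Within a mouse the counting intervals of the 3 MLN classes overlapped. When clones were defined by the TRB chain alone, the shares were 35.9% and 21.0% of members, 36.5% and 29.3% of cells with Cxcr5 only and 37.7% and 28.0% of the class none.

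The clones of the members reached beyond the class, as did those of the other MLN classes. The 85 expanded members (74 and 11) belonged to 75 clones, of which 67 held 1 member, 6 held 2 and 2 held 3. A clone mate in the class none was found for 36 (48.6%) and 4 (36.4%) of them, and another member for 18 (24.3%) and 0. Of expanded cells with Cxcr5 only, 51.6% and 44.0% had a clone mate in the class none and 15.8% and 16.0% had a member. Of expanded cells of the class none, 58.5% and 38.9% had another cell of that class and 10.6% and 7.41% had a member. Clone 1, whose chains are printed above, had 15 cells: 3 members, 3 cells with Cxcr5 only, 4 cells of the class none and 5 lung cells. Another clone of the same mouse, with 2 cells, carried the same TRB chain and the TRAV6-7-DV9 chain of clone 1 without its first TRA chain. Clone 2 had 3 members and 1 cell with Cxcr5 only, and clones 6, 7 and 8 had 2 members each and no other cell. Clones 6 and 7 used the same TRAV14N-3 segment with different J segments and CDR3.

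Fewer expanded members than cells of the class none had a relative in the lung. The counts were 15 of 74 (20.3%, 11.8 to 31.2) and 1 of 11 (9.09%, 0.230 to 41.3) for members against 119 of 388 (30.7%, 26.1 to 35.5) and 17 of 54 (31.5%, 19.5 to 45.6) for the class none. The direction was the same in both mice, but the intervals overlapped in each, and 2 mice cannot pass a permutation test. Cells with Cxcr5 only stood at 20.5% and 16.0%. Of all cells, expanded or not, 5.73% and 1.23% of members had a lung relative, 5.99% and 2.09% of cells with Cxcr5 only and 9.25% and 3.97% of the class none. No link to the lung rested on a barcode shared between libraries. The V segments used most were shared with the class none, with TRBV13-2 in 16.4% and 16.0% of members against 15.1% and 14.7%, and TRBV31 in 14.1% and 16.0% against 11.2% and 13.8%.

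**Figure D5:**
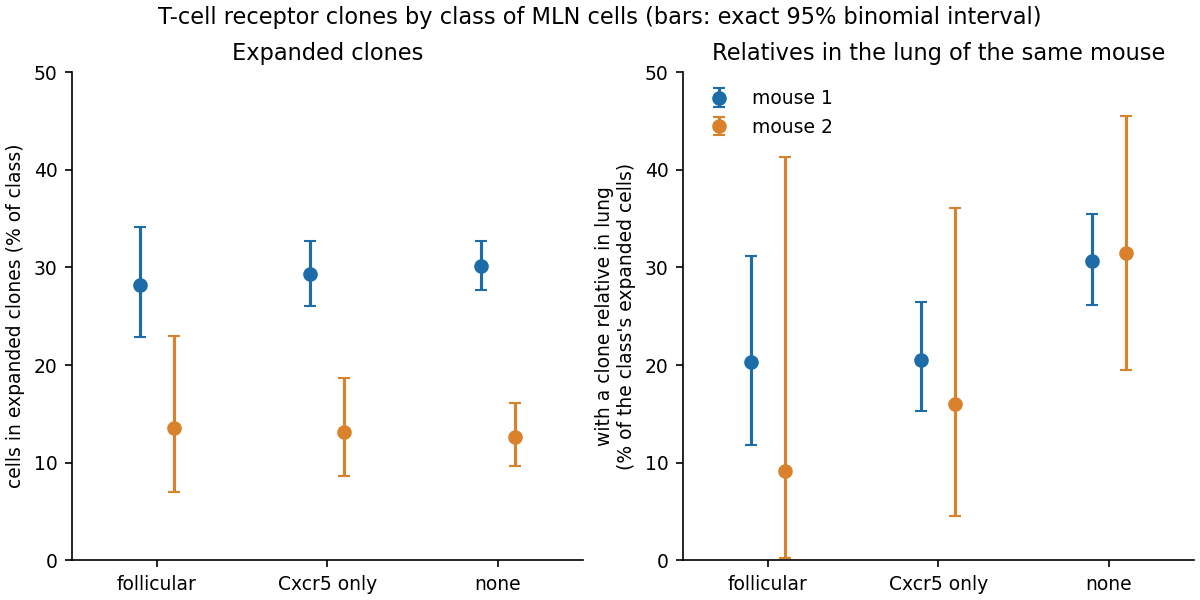
Left, share of cells in clones of more than 1 cell, and right, share of those cells with a clone mate in the lung (y axes, %), for members, MLN cells with Cxcr5 only and the class none, with 1 point per mouse and exact 95% binomial intervals as bars. The left panel shows like shares in the 3 classes of a mouse, and the right panel shows members below the class none in both mice with overlapping intervals.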

How the data were processed

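Gene by cell counts of UMIs were deposited by the authors, who had aligned the 5′ single-cell libraries of the first run to mm10 with Cell Ranger (2.1.1 and 3.0.1) and those of the second with Cell Ranger 6.1.2 (build not given in the sources used here), versions per the submitters' processing notes, pooling both sequencing runs of a first-run library. TCR contigs were deposited with counts of UMIs by the authors. Cells were filtered and classed as stated above, no doublet caller was used, and cells of the second run were those of the IL-4eGFP+ gate, given by the barcode suffix, of which 9385 of 9603 passed the filters. Seurat 5.3.0 (HTODemux) assigned 1986 and 1998 of them to MLN of mice 1 and 2, called 1242 doublets and 82 negatives, and put the rest in medLN. The members and gene lists were chosen with earlier results of these data known.

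Counts were summed per class and mouse and TCR genes were left out of the fits. With TCR genes the totals were 1832726 and 599399 UMIs for members and 7415042 and 2411128 for the class none. Sums were filtered (filterByExpr), normalized by TMM and tested with edgeR 4.0.16 in R 4.3.3 (quasi-likelihood, Benjamini-Hochberg, threshold 0.05), as tested on simulated data. DESeq2 1.42.0 was an alternative. The SE of a log2 fold change is its absolute value divided by the square root of the F statistic of the edgeR test. Levels are CPM of the edgeR library sizes before TMM, except the summed levels of marker lists and their most abundant genes, which are CPM of the totals with TCR genes. Genes named were those of 15 lists plus, per comparison, up to 12 in each direction with the largest change among called genes whose mean level reached 50 CPM with the same direction in both mice, and others were chosen after their values were seen. Same-numbered sums come from the same animal: the correlations of their deviations were 0.216, 0.153, 0.0329, 0.162 and 0.0269 in the 5 comparisons, in the order of the text with the 2 of the second run last. Intervals are exact (scipy 1.17.1). Gene positions are from GENCODE on GRCm38. IL-4eGFP- and medLN cells entered no comparison. The split of the second run and the test between runs were added after the data were seen.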

Additional observations from a re-analysis of the deposited data

Results flagged for a closer look

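Cells that met the rule were also present in data outside the comparisons, above the share that 3 counts would give. Among MLN cells without a full TCR, 24 of 348 in mouse 1 (6.90%, 4.47 to 10.1) and 10 of 145 in mouse 2 (6.90%, 3.36 to 12.3) held Cxcr5 and Bcl6 or Il21. In the mediastinal lymph node of the second run, 139 of 2065 IL-4eGFP+ cells of mouse 1 (6.73%, 5.69 to 7.90) and 195 of 2012 of mouse 2 (9.69%, 8.43 to 11.1) did. Median depths were 3304 and 3745 UMIs in the MLN cells without a full TCR, against 4812 and 4816 UMIs in the first-run class none. They were 3173 and 3230 UMIs in the medLN cells, against 3320 and 3664.5 UMIs in all MLN cells of the second run. The part of depth in these shares was not tested.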

How the results depend on the processing

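Called genes of members against the class none numbered 347. The count was 643 with the mouse as a replicate block, 177 with DESeq2, 642 without a filter on low counts, 684 with the class none matched in UMIs and the block, 115 after thinning to 2000 UMIs, and 195 to 492 with a sum left out (195 without the members of mouse 1). Against cells with Cxcr5 only the count of 16 became 148 with the block, 4 with DESeq2, 62 without the filter, 28 with cells matched in UMIs, 171 with matching and the block, and 0 to 59 with a sum left out (0 without the members of mouse 2, 10 without those of mouse 1, 59 and 38 without the cells with Cxcr5 only of mouse 1 and 2). For Il21 against Bcl6 members 60 became 115 with the block, 15 with DESeq2, 99 without the filter and 58 to 85 with a sum left out. In the second run 887 became 1584 with the block, 517 with DESeq2, 1500 without the filter, 508 with matching and 531 to 1028 with a sum left out (531 without the members of mouse 1). Its split by Il21 went from 293 to 33 with DESeq2 and to 115 to 464 with a sum left out (464 and 115 without the Il21 members of mouse 1 and 2, 125 without the Bcl6 members of mouse 2), and the block changed that count by less than 1.5 times. The mean share of members, 10.7%, was 2.90% after thinning and 2.35% at 2 UMIs of each. The cause of these changes was not tested. After thinning, 24 of the 58 named genes of members against the class none kept their call and 28 lost it with the same direction. Nfatc1 was reversed, and the rest had no value there. Of the named called genes of members against the class none, 683 repeats under other settings kept direction and call, 64 kept direction alone and 1 was reversed (Nfatc1, log2 fold change -0.012 after thinning), and of those with a sum left out 216 and 16. The block changed no call among the 58 named genes of that comparison.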
